A study of Homo sapiens with 2 samples.

Results

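The G1/S CAL51 cells were the 161 cells, of 1071 usable CAL51 cells and 1683 barcodes in the whole series, whose RNA held the largest share of 8 transcripts made as cells prepare to copy their DNA. CAL51 and MDAMB468 are established human triple-negative breast cancer cell lines, and the labels name no treatment, time point or genetic change for either. Both were profiled by Drop-seq, a droplet method that captures polyadenylated RNA on barcoded beads and tags each captured molecule with a unique molecular identifier (UMI), so that a count is a count of captured molecules. There was 1 library per line, so no difference between cells could be tested across libraries, no p-value is given, and every interval is an exact 95% interval for counting error only.

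A cell that is about to divide first licenses its replication origins in G1 by loading the MCM helicase with the help of ORC1, CDC6 and CDT1. Phosphorylation of the RB protein by cyclin-CDK complexes then frees the E2F transcription factors, which switch on genes for the helicase, the DNA polymerases, nucleotide synthesis and cyclin E. Later, in G2 and mitosis, a second set of genes for spindle, kinetochore and cyclin B proteins is transcribed through MYB-FOXM1 complexes. Most products of this set are cleared as the cell divides.

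The members were picked by a score, the summed UMIs of MCM3, MCM5, MCM6, PCNA, GINS2, CDC6, SLBP and UNG divided by all UMIs of the cell. CAL51 barcodes needed at least 5000 UMIs and a sequence not also seen under MDAMB468, which left out 297 barcodes for depth and 9 of the 31 shared barcodes. The 15% of cells with the highest score were taken, and the other 910 cells are the comparison. Scores of the G1/S cells ran from 22.2 to 38.4 score UMIs per 10000 UMIs with a median of 25.8, and those of the other cells from 0 to 22.2 with a median of 11.4. The score is continuous with no gap at the limit: the lowest member held 21 score UMIs of 9458 (22.2034 per 10000), and the highest cell left out held 44 of 19818 (22.202 per 10000). Within 10% of the limit lay 54 members above it and 71 other cells below it. A member's score rested on a median of 23 UMIs (12 to 84), and the 21 UMIs of the lowest member have a counting interval of 13 to 32.1, so membership near the limit is not exact.

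**Figure D1:**
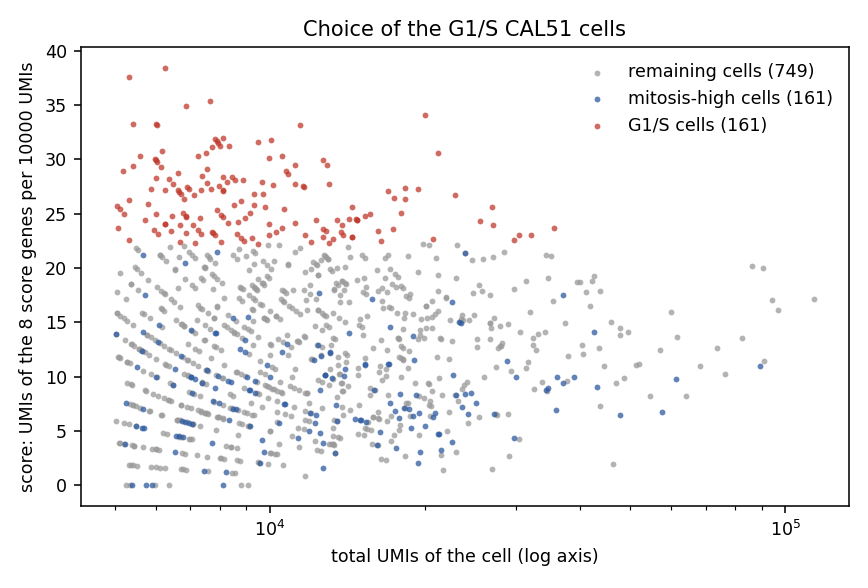
Score of every usable CAL51 cell (UMIs of the 8 score genes per 10000 UMIs) against the total UMIs of the cell on a log axis, with 1 point per cell and the G1/S cells in their own colour. The G1/S cells lie at 22.2 to 38.4 and sit mainly at low totals, with few among the deepest cells.

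The G1/S cells were shallower than the rest. Their median total was 8311 UMIs (5050 to 35521) against 10947.5 (5022 to 113702) in the other cells. The usable cells were also divided into 5 equal groups by depth. From the shallowest to the deepest of these depth groups, G1/S cells made up 19.1%, 23.4%, 13.5%, 13.6% and 5.61%. At equal depth the difference in complexity was small: thinned to 5000 UMIs, the median member had 2364 detected genes and the median other cell 2373. Mitochondrial transcripts took a median of 4.34% of UMIs in the G1/S cells and 4.14% in the others, and ribosomal protein transcripts 12.5% in both. The 6 MDAMB468 marker genes gave 0 UMIs in the G1/S cells and 2 in the other CAL51 cells. The part of the depth difference in the gene values below was not tested, and values from members chosen within each depth group are given where they change a statement.

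The score genes themselves differ by construction, between 1.86-fold (SLBP, the histone mRNA stem-loop binding protein) and 2.79-fold (UNG, which removes uracil from DNA), and they are left out of all that follows. As a description of how far they vary together, each was set aside in turn and cells were chosen again by the remaining genes. The gene set aside was still higher in the cells so chosen, from 1.47-fold (1.32 to 1.62) for SLBP to 2.34-fold (1.99 to 2.75) for MCM5, a subunit of the MCM helicase ring. PCNA, the sliding clamp of the polymerases, gave 1.58-fold (1.47 to 1.70). The label of the cells was checked against lists that share no gene with the score. UMIs of the licensing and helicase, replication fork, and E2F and cyclin E lists were summed per cell after thinning to 5000 UMIs. This sum was 17 to 60 in the G1/S cells (median 37), 2 to 55 in the other cells (median 25) and 7 to 44 (median 22) in mitosis-high cells, the 161 usable CAL51 cells with the largest share of UMIs from a mitosis list. The mitosis list itself gave 3 to 29 UMIs per G1/S cell (median 11), 29 to 84 per mitosis-high cell (median 47) and 0 to 50 per cell of the remaining 749 (median 16). G1/S and mitosis-high cells touched at a single value of this count, and 0 of the 161 G1/S cells were mitosis-high. Since this same list chose the mitosis-high cells, their high counts and much of that separation were set by the choice. By the first sum the members held more of the replication transcripts that the label names, with a wide overlap with the remaining cells in both sums.

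**Figure D2:**
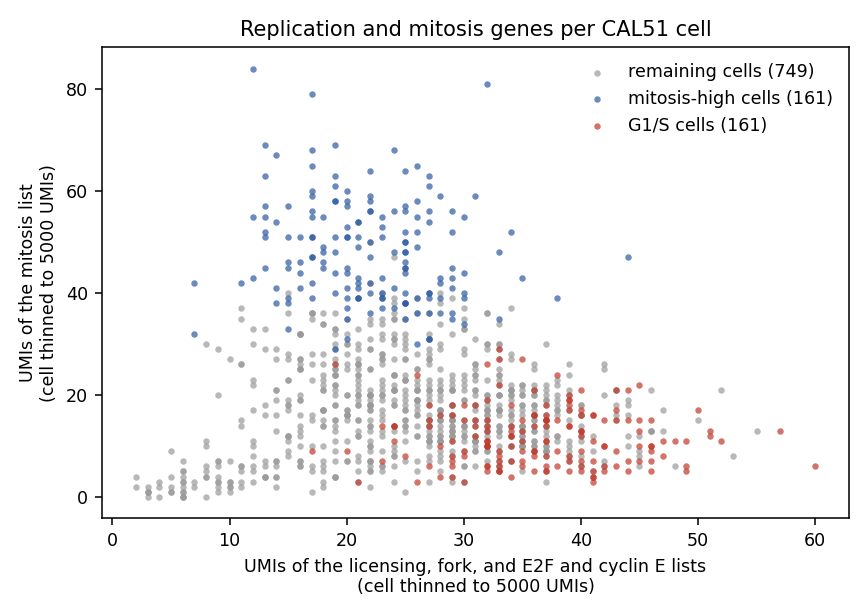
UMIs of the licensing, fork, and E2F and cyclin E lists (horizontal) against UMIs of the mitosis list (vertical) per CAL51 cell after thinning to 5000 UMIs, 1 point per cell. G1/S cells (medians 37 and 11) lie at the lower right, mitosis-high cells (22 and 47) at the upper left, and the remaining cells (26 and 16) spread between and below them.

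Outside the score, 4853 genes had at least 500 UMIs over both groups. Levels are CPM, the UMIs of a gene scaled to 1000000 UMIs over all cells of the group. Differences are log2 of CPM + 1, a scale that understates the difference of low genes, and a gene is called higher or lower past 1.3-fold on it. By that rule 165 genes (3.4%) were higher in the G1/S cells and 301 (6.2%) were lower, with a median difference over all 4853 of -0.02. Scaled by edgeR TMM factors instead, 124 were higher and 381 lower. With members chosen within depth groups, 153 (3.15%) were higher and 212 (4.37%) lower, with a median of 0.00. With the score taken after thinning to 5000 UMIs, 116 (2.39%) were higher and 259 (5.34%) lower. Of the 165 higher genes 58 belonged to a list used here, and of the 301 lower genes 42 did. Since the score chose the cells from the same library, these shares and all values below describe the cells and test nothing.

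The highest single genes were FAM111B, CCNE2 and DTL, of which CCNE2 and DTL belong to the E2F and cyclin E list and FAM111B to none of the lists. FAM111B, a protease linked to DNA replication (ENSG00000189057, chromosome 11, 59107185 to 59127410, GRCh38), had 222 UMIs or 132 CPM (115 to 151) in the G1/S cells and 606 UMIs or 44.9 CPM (41.4 to 48.6) in the others, a 2.94-fold difference (2.51 to 3.44). At 5000 UMIs per cell it was seen in 41.6% of G1/S cells (33.9 to 49.6), 13.96% of the other cells (11.8 to 16.4) and 3.11% of mitosis-high cells. Without thinning those shares were 55.9%, 30.3% and 16.8%. Among the counted genes higher in the G1/S cells it had the largest difference. The G1/S share lay above the mitosis-high share at equal depth. How much of the mitosis-high share came from free RNA in the droplets was not tested.

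CCNE2, a cyclin E that activates CDK2 at the entry to S phase, was next, at 94.6 CPM (80.4 to 110) against 33.1 CPM (30.1 to 36.3), or 2.86-fold (2.37 to 3.43). After thinning it was seen in 36.6% of G1/S cells, 13.96% of the others and 5.59% of mitosis-high cells, and without thinning in 53.4%, 27.4% and 10.6%. CCNE1, the other cyclin E, fell short of 500 UMIs, with 50 against 197, and was 2.04-fold higher (1.46 to 2.79). DTL, which directs CDT1 to degradation once replication has begun (ENSG00000143476, chromosome 1, 212035553 to 212107400), stood at 112 CPM (97.0 to 130) against 44.9 CPM (41.4 to 48.7), or 2.50-fold (2.11 to 2.95). It was seen in 43.5% of G1/S cells and 16.4% of the others after thinning, and in 62.1% and 36.6% without it. In mitosis-high cells those DTL shares were 12.4% and 32.9%, so that DTL was not rare in mitosis-high cells at full depth.

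Of the 14 genes of the E2F and cyclin E list 9 had enough UMIs. Of these, 5 were called higher and 0 lower, with a median difference of 0.48. With the score taken after thinning, 7 of the 9 were called higher (median 0.43). E2F8 and E2F7, the atypical E2F proteins that repress E2F targets, were 1.85-fold (1.50 to 2.27) and 1.53-fold (1.25 to 1.87) higher. E2F1, the activating family member, was seen only 20 times in the G1/S cells and 85 times in the others, so its ratio of 1.89 is known only within 1.10 to 3.10. RB1, the E2F inhibitor itself, was 1.09-fold the level of the other cells (0.91 to 1.3), an interval that includes no difference. WDR76, named by the size of its difference and in none of the lists, was 2.36-fold higher (2.03 to 2.73), at 140 CPM (122 to 159) against 59.2 CPM (55.2 to 63.5).

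Origin licensing and helicase genes were higher as a group. Their summed level was 3092 CPM in the G1/S cells and 2104 CPM in the others, a fold of 1.47 (1.43 to 1.51), and 11 of the 17 counted genes (of 20) were called higher and 0 lower, with a median difference of 0.65. ORC1, the origin recognition subunit that varies through the cycle, was 2.01-fold higher (1.61 to 2.48). MCM10 and CDC45, which turn the loaded helicase into a running one, were 1.90-fold and 1.91-fold higher. The helicase subunits outside the score followed with MCM4 at 1.78-fold (1.63 to 1.95), MCM2 at 1.65-fold (1.48 to 1.85) and MCM7 at 1.57-fold (1.43 to 1.73). CDT1, the loading factor, had only 51 UMIs against 263 and a ratio of 1.56 (1.13 to 2.11). TIPIN, which protects paused forks with TIMELESS, was 1.94-fold higher (1.62 to 2.32). The lowest member of the list was DBF4, the activator of the CDC7 kinase, with a log2 difference of -0.25.

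At the replication fork the summed level was 3421 CPM against 2405 CPM, or 1.42-fold (1.38 to 1.46). Of 18 counted genes (of 25), 12 were called higher and 0 lower, with a median of 0.45. With the score taken after thinning, 7 of the 18 were called higher (median 0.33). PRIM1, the primase that starts each new strand, was 1.77-fold higher (1.55 to 2.03). FEN1, which trims Okazaki fragments, was 1.74-fold higher (1.53 to 1.98). PCLAF, a small protein bound to PCNA and the most abundant of the 3 named here, stood at 910 CPM against 587 CPM, or 1.55-fold (1.47 to 1.64).

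Genes that supply nucleotides differed less. The sum of the list was 3553 CPM against 2718 CPM, 1.31-fold (1.27 to 1.34). Of 13 counted genes (of 16), 6 were called higher and 0 lower, with a median of 0.30. With the score taken after thinning, 3 of the 13 were called higher (median 0.27). DUT, which destroys dUTP, was 1.62-fold higher (1.51 to 1.74). RRM2, the regulated subunit of ribonucleotide reductase, was at 414 CPM against 300.3 CPM or 1.38-fold (1.27 to 1.49). TYMS, which makes thymidylate, was at 536 CPM (502 to 573) against 450 CPM (439 to 461), or 1.19-fold (1.11 to 1.28), and so was not called.

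Counted repair genes, and chromatin assembly genes except ASF1A, showed the same direction. All 15 chromatin assembly genes were counted, and 9 were called higher and 0 lower (median 0.40, sum 1.26-fold, 1.24 to 1.29). With the score taken after thinning, 5 of the 15 were called higher (median 0.31). ASF1A was the lowest of the list, at 0.825 of the level of the others (0.674 to 1.001). CHAF1B and CHAF1A, subunits of the factor that places histones on new DNA, were 2.25-fold (1.84 to 2.73) and 1.56-fold (1.31 to 1.84) higher, and HELLS, a chromatin remodeller, 1.54-fold (1.42 to 1.68). Of the 16 counted recombination and repair genes (of 22), 8 were called higher and 0 lower, with a median of 0.38 and a summed fold of 1.35 (1.31 to 1.40). EXO1, a nuclease of mismatch and break repair that had too few UMIs to be counted (98 and 357), was 2.20-fold higher (1.74 to 2.76). BRCA1, a tumour suppressor of double-strand break repair, was 1.79-fold higher (1.58 to 2.02). ZNF738 and PSMC3IP were also among the 12 highest genes, at 1.91-fold and 1.94-fold.

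Replication-dependent histone genes, which are transcribed as DNA is being copied, stood apart from the other replication groups by their sum, though not by the median of their genes. Of 53 listed genes 49 were in the matrix but only 7 reached 500 UMIs. As background, most of these mRNAs end in a stem-loop and lack the poly(A) tail that the bead primers capture. Their sum was 4232 CPM against 3959 CPM, 1.07-fold (1.04 to 1.10), with 3 of the 7 called higher and 0 lower and a median of 0.29. H4C3 supplied most of it, with 4448 UMIs in the G1/S cells and 36541 in the others, and its ratio was 0.98 (0.95 to 1.01). H1-3, a linker histone, was 1.55-fold higher (1.41 to 1.70). The direction of the sum changed with the comparison group and with the score. With the score taken after thinning, the sum stood at 0.991 (0.968 to 1.015), an interval that includes no difference, and 1 of the 7 was called higher. Against the mitosis-high cells the histone sum was 2.40-fold higher (2.32 to 2.50), and against the remaining 749 cells it was 0.951-fold (0.927 to 0.975). Per cell at 5000 UMIs the histone count ran from 1 to 86 in the G1/S cells (median 16), from 0 to 79 in the remaining cells (median 19) and from 0 to 73 in the mitosis-high cells (median 4). The G1/S cells thus held histone-poor and histone-rich cells together.

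**Figure D3:**
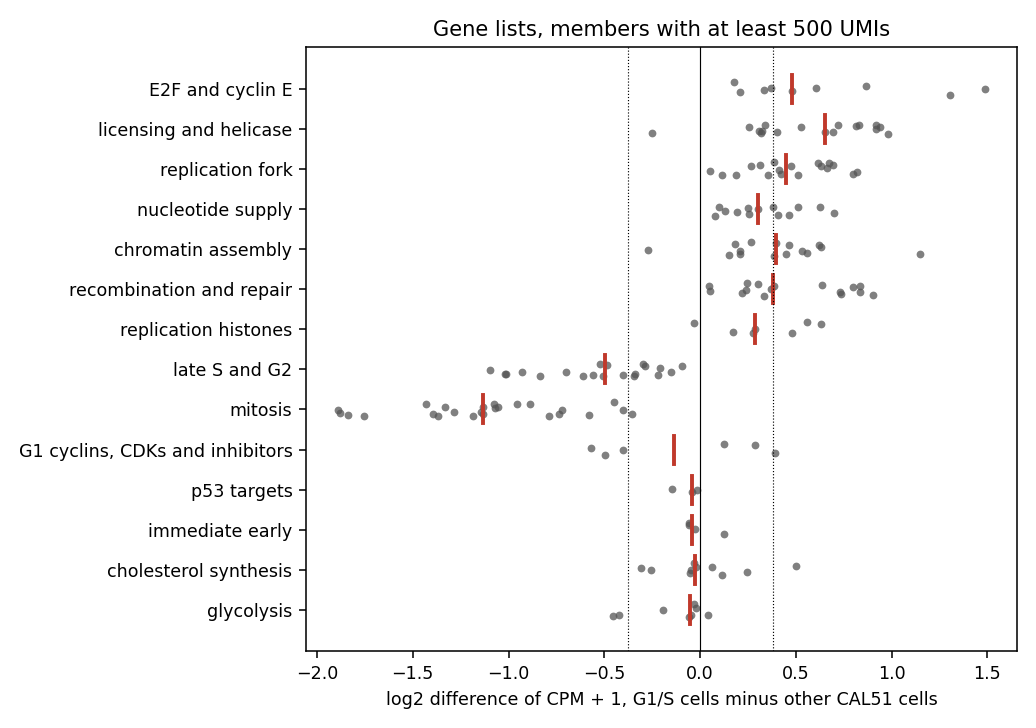
Log2 difference of CPM + 1 between the G1/S cells and the other CAL51 cells for each list member with at least 500 UMIs, 1 point per gene, with a red bar at the median of the list. The medians of the replication lists lie right of 0 (0.29 to 0.65), though a few of their members lie left of it. Those of the late S and G2 and mitosis lists lie left of 0 (-0.50 and -1.13).

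RefSeq promoter sequences (GRCh38.p14) were read for the genes named by the size of their difference, because E2F sites are known in promoters of replication genes and CHR elements in those of mitotic genes. The 250 bases before the RefSeq start are shown, 5′ to 3′ on the strand of the gene, for the 4 highest genes with an entry (DTL, chr1:212035498-212035747, plus strand, CHAF1B, chr21:36385142-36385391, plus strand, ORC1, chr1:52404424-52404673, minus strand, and TIPIN, chr15:66386718-66386967, minus strand) and for the 2 lowest with an entry (PLK1, chr16:23678639-23678888, plus strand, and CENPE, chr4:103198344-103198593, minus strand). AURKA, the lowest gene, had no entry. Capitals mark every match, on either strand, to an E2F word (TTTCCCGC, TTTGGCGC, TTTCGCGC or TTTGCCGC), a CHR word (TTTGAA or TTCGAA) or CCAAT. The words of different motifs did not overlap in these 6 windows.
DTL: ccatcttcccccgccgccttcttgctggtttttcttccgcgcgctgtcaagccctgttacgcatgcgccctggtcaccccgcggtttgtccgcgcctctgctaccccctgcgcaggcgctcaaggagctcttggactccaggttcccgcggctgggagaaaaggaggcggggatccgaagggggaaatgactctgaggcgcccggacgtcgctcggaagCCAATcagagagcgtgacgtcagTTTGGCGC
CHAF1B: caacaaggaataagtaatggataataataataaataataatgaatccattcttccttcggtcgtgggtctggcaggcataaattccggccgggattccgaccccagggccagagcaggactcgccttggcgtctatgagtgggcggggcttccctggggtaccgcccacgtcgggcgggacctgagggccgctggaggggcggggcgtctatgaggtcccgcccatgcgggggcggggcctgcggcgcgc
ORC1: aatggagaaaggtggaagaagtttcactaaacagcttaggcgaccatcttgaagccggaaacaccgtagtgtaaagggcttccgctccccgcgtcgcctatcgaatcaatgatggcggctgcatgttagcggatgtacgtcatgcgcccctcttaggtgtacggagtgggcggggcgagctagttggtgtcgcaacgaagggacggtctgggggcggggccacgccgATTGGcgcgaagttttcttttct
TIPIN: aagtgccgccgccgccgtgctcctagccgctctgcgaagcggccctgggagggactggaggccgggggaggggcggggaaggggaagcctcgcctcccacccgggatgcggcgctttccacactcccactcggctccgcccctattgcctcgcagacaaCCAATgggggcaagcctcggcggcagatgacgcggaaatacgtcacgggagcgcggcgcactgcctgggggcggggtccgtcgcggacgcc
PLK1: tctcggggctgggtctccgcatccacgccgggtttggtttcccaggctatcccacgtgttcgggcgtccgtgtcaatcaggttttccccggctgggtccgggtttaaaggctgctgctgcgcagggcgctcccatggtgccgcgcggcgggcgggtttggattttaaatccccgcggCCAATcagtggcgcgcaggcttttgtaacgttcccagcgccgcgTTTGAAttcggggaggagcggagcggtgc
CENPE: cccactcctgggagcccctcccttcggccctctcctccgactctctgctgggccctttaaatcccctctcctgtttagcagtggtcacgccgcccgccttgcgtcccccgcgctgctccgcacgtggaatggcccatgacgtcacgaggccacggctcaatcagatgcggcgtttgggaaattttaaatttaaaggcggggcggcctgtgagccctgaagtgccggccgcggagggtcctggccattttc
DTL held an E2F word, TTTGGCGC, from base 8 to base 1 before its start and a CCAAT box from base 31 to 27. PLK1 held the CHR word TTTGAA from base 29 to 24 before its start, with a CCAAT box from base 73 to 69. ORC1 (bases 23 to 19, minus strand) and TIPIN (bases 91 to 87) held CCAAT alone, and none of the words was found in the windows of CHAF1B and CENPE. The starts of RefSeq and of GENCODE 29 lay 14 to 1233 bases apart for these genes, the largest distance being that of PLK1. Under GENCODE 29 the PLK1 window lies wholly inside the gene, and the last 14 (CHAF1B) to 195 bases (DTL, its E2F word included) of the other windows lie after the gene start, so these stretches are upstream by RefSeq only. An E2F word stood in 14.3% of the promoters of the higher genes (19 of 133 with an entry), 1.61% of those of the lower genes (4 of 248), 5.40% of those of all genes counted (217 of 4017) and 2.81% of all 27305 promoters. A CHR word stood in 11.3%, 23.4% (58 of 248), 10.8% and 14.6% of the same groups. CCAAT stood in 45.9%, 52.8%, 37.7% and 33.0%. These are matches of letters and not bound sites.

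Genes of mitosis were the lowest in the G1/S cells. The list summed to 2329 CPM against 4635 CPM, so that the other cells held 1.99 times (1.93 to 2.06) the level of the G1/S cells, and 24 of the 25 counted genes (of 26) were called lower and 0 higher, with a median difference of -1.13 (-0.74 when the score was taken after thinning). AURKA, the kinase that matures the spindle poles (ENSG00000087586, chromosome 20, 56369389 to 56392337), had 82 UMIs or 48.8 CPM (38.8 to 60.5) in the G1/S cells and 2475 UMIs or 183 CPM (176 to 191) in the others. That is 3.76-fold higher in the others (3.02 to 4.74). PLK1, a kinase needed for mitotic entry (chromosome 16, 23677656 to 23690367), was at 22.0 CPM (15.5 to 30.3) against 83.6 CPM (78.8 to 88.6), or 3.80-fold higher in the others (2.74 to 5.42). CENPE, a kinetochore motor, was 3.64-fold higher in the others (2.88 to 4.67). CCNB1, the cyclin of the mitotic CDK1 kinase, was at 121 CPM (105 to 139) against 327 CPM (317 to 336), 2.71-fold higher in the others (2.35 to 3.13). The other names among the 10 lowest were PSRC1, SGO2, KIF14, G2E3, TTK and NEK2, with G1/S levels of 0.28 to 0.38 of the others.

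After thinning, AURKA was seen in 19.9% of G1/S cells, 45.3% of the others and 85.1% of mitosis-high cells, and without thinning in 33.5%, 64.8% and 97.5%. For PLK1 the thinned shares were 11.2%, 28.9% and 64.0%, and the unthinned ones 18.6%, 48.0% and 89.4%. CCNB1 remained widespread, in 41.6% of G1/S cells, 65.4% of the others and 95.7% of mitosis-high cells after thinning (60.9%, 82.2% and 98.8% without). Some mitotic transcripts were thus counted in many members, each cell of which held at least 3 UMIs of the list at 5000 UMIs.

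Genes of late S phase and G2 lay between the replication and mitosis groups. Their sum was 4534 CPM against 6316 CPM, 1.39 times higher in the others (1.36 to 1.43), and 12 of 20 counted genes (of 21) were called lower and 0 higher, with a median of -0.50. TOP2A, the topoisomerase that untangles sister chromatids, was 1.91-fold higher in the others (1.76 to 2.08), and TPX2, an activator of AURKA, 2.15-fold (1.90 to 2.44). MKI67, the proliferation antigen, differed less, at 492 CPM against 707 CPM, 1.44-fold higher in the others (1.34 to 1.54). SMC4, a condensin subunit, was almost level with a log2 difference of -0.09.

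The size of the mitotic difference depended on the comparison group, which held all 161 mitosis-high cells. Against the remaining 749 cells, an alternative added after the data had been seen, 131 of 4340 genes (3.02%) were higher and 209 (4.82%) lower. The mitosis list then had 19 of 23 genes lower with a median of -0.75, and its sum was 1.54 times higher in the remaining cells (1.49 to 1.59). The late S and G2 list then had 7 of 19 genes called lower and 3 above 0, with a median of -0.28. Its sum was 1.21 times higher in the remaining cells (1.18 to 1.24). AURKA then stood at 0.397 of the remaining cells (0.314 to 0.496). The replication groups moved less: the licensing sum was 1.44-fold higher (1.40 to 1.49) and FAM111B 2.56-fold (2.18 to 2.99). All 165 higher and all 301 lower genes kept their sign, and 141 and 247 of them stayed past 1.3-fold. The 749 cells are most of the original comparison group and the G1/S cells are the same, so the kept signs were close to fixed in advance.

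Genes that hold cells in G1 or release them were mixed in direction, with more lower than higher. Of 17 listed genes 6 had enough UMIs, of which 1 was called higher and 3 lower, with a median of -0.14, and the sum was 1.12 times higher in the others (1.07 to 1.18). Within depth groups 2 were lower and the median was -0.03. With a minimum of 100 UMIs, 9 of 14 were negative with a median of -0.26, and 6 were called lower and 2 higher, where 12.2% of the 9635 genes at that minimum were called lower and 7.15% higher. CDK2, the partner of cyclin E, was 1.32-fold higher (1.09 to 1.58), and CDK4, the partner of cyclin D, 1.22-fold (1.12 to 1.32) and not called. CCND1, the cyclin D gene induced by growth signals, was at 332 CPM (305 to 361) against 494 CPM (482 to 506), 1.49-fold higher in the others (1.36 to 1.62). Its shares of cells at 5000 UMIs were close, 72.0% of G1/S cells and 76.4% of the others, and 85.1% and 90.8% without thinning. CDKN1B, the CDK inhibitor p27, was 1.32-fold higher in the others (1.12 to 1.57). CDKN1A, the inhibitor p21, was rare, with 32 UMIs against 450, and 1.75-fold higher in the others (1.22 to 2.59). It belongs to the p53 target list, of which only 3 of 17 genes reached 500 UMIs, 0 of them called and with a median of -0.04. The summed p53 targets were 1.18 times higher in the other cells (1.09 to 1.27). With a minimum of 100 UMIs, 16 of 17 p53 targets had a negative difference and 8 were called lower (0 higher), and of all genes at that minimum 54.3% were negative.

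Of the groups outside the cell cycle, most had few genes called. Ribosomal protein genes had 0 of 82 called and a median of 0.00, and genes of the mitochondrial genome 0 of 17 called and a median of 0.06. Of 8 glycolysis genes 2 were called lower (median -0.05), and 1 with members chosen within depth groups. Of 10 cholesterol synthesis genes 1 was called higher, INSIG1 (median -0.03), whose log2 difference of 0.50 was 0.25 within depth groups, where 0 of the 10 were called. The immediate early genes, which respond to stress and growth factors, had 0 of 4 called and a summed ratio of 0.993 (0.939 to 1.05). Further lists held genes that, in earlier results of these data, vary between cells of this line. The apolipoprotein genes APOE and APOC1 summed to 1.31 times more in the others (1.22 to 1.40), and the PTGDS list to 1.28 times more (1.04 to 1.58). PTGDS itself, a prostaglandin D synthase with 12 UMIs against 236, was 2.45-fold higher in the others (1.38 to 4.81), and all 3 genes of its list were negative, 2 of them called lower at 100 UMIs. With the score taken after thinning, the PTGDS list stood at 0.917 (0.761 to 1.10), an interval that includes no difference. The collagen list (COL3A1, COL2A1 and NTS) summed to 1.44 times the level of the others (1.27 to 1.62), to 1.22 times (1.09 to 1.37) with members chosen within depth groups and to 0.923 times (0.807 to 1.05) with the score taken after thinning. NTS, a neuropeptide gene, changed sign under both alternatives, and no direction is given for the list.

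Levels along the score were described in 10 equal groups of all 1071 cells, score group 1 with the lowest scores and score group 10 with the highest. Licensing genes stood at 1229 CPM in group 1 and 3160 CPM in group 10, with each group above the one before. CCNE2 stood at 3.39 CPM (0.923 to 8.68) in group 1 and 110 CPM (90.5 to 132) in group 10, and FAM111B at 8.47 CPM (4.06 to 15.6) and 131 CPM (109 to 155). TYMS was 252 CPM in group 1, 496 CPM in group 5 and 551 CPM in group 10, so most of its range lay in the lower groups. Histones peaked in group 8 at 4562 CPM (4459 to 4667) and were at 4097 CPM in group 10. The mitosis list was not highest in group 1 (4491 CPM) but in group 2 (6124 CPM), and stood at 2202 CPM in group 10. Mitosis-high cells numbered 24 in group 1, 34 in group 2 and 0 in group 10. Group 1, with a median total of 8581 UMIs, had 657 CPM of CCND1 (612 to 705), close to the 649 CPM of group 4 (611 to 689), against 358 CPM (322 to 397) in group 10. Its p53 targets were the highest of any group, at 787 CPM (737 to 839) against 433 CPM (393 to 476) in group 10.

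**Figure D4:**
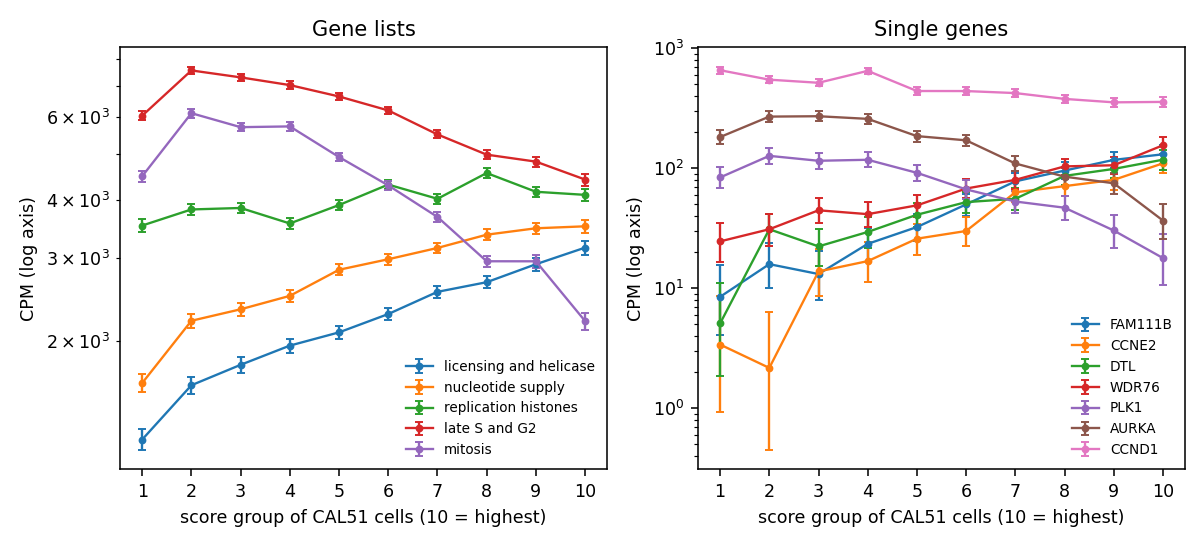
Summed CPM of gene lists and CPM of single genes (log axes) in 10 equal groups of CAL51 cells by score, 10 being the highest, with exact 95% Poisson intervals as bars. CCNE2 and FAM111B climb from 3.39 and 8.47 CPM to 110 and 131 CPM, while the mitosis list peaks at 6124 CPM in group 2 and is at 2202 CPM in group 10.

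The same score was then applied to MDAMB468, a library that the choice of the CAL51 cells had not used. The top 15% were 31 of 208 usable cells, again chosen by their own readout, with a median of 19022 UMIs against 17467 in the other 177. There 76 of 1771 genes (4.29%) were higher and 150 (8.47%) lower. Of the CAL51 genes called higher, 33 had enough UMIs in both lines, and 31 of them were also higher in MDAMB468, 19 (57.6%) past 1.3-fold. Of those called lower, 67 had enough UMIs, and 60 were also lower, 42 (62.7%) past 1.3-fold, and 0 genes were called in opposite directions. All 12 highest and all 10 lowest CAL51 genes had the same sign in MDAMB468.

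Levels and ratios of single genes are given for both lines side by side. FAM111B was at 464 CPM against 183 CPM in MDAMB468, 2.54-fold (2.20 to 2.91), next to 2.94-fold in CAL51. CCNE2 was 2.51-fold higher there (1.78 to 3.48), next to 2.86-fold. DTL had 67 and 119 UMIs and was 4.38-fold higher (3.20 to 5.96), next to 2.50-fold (2.11 to 2.95), intervals that do not overlap. RRM2 and TYMS also differed more there, by 2.19-fold (1.87 to 2.55) and 1.65-fold (1.40 to 1.93). CCNB1 stood at 0.142 of the other MDAMB468 cells (0.0839 to 0.226) and at 0.370 of the other CAL51 cells (0.320 to 0.426). CHAF1B, with 14 and 76 UMIs there, had a ratio of 1.43 whose interval includes no difference (0.748 to 2.55).

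By list, the licensing sum was 1.72-fold higher in the chosen MDAMB468 cells (1.62 to 1.82), the fork sum 1.51-fold (1.42 to 1.60) and the nucleotide sum 1.42-fold (1.34 to 1.50). The mitosis sum was 2.52 times higher in the other cells (2.37 to 2.69). Histones were 1.49-fold higher in the chosen MDAMB468 cells (1.42 to 1.55), next to 1.07-fold in CAL51 (1.04 to 1.10). Whether these differences between the lines exceed the variation between libraries was not tested, with 1 library per line.

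**Figure D5:**
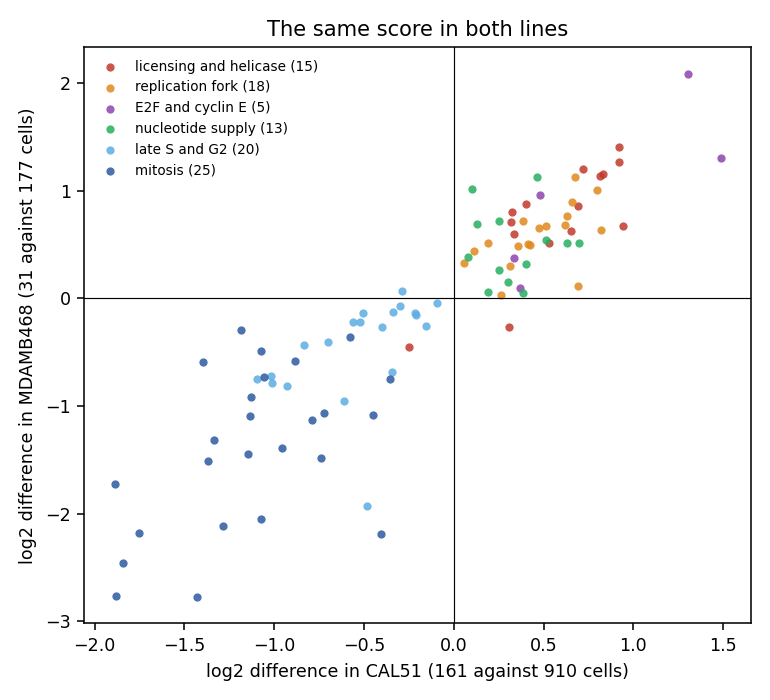
Log2 difference between cells with a high score and the other cells in CAL51 (horizontal, 161 against 910 cells) and in MDAMB468 (vertical, 31 against 177 cells) for members of 6 lists, 1 point per gene. Genes plotted had at least 500 UMIs in CAL51 but only at least 100 UMIs in MDAMB468. The sign was the same for 14 of 15 licensing, 18 of 18 fork, 5 of 5 E2F and cyclin E, 13 of 13 nucleotide, 19 of 20 late S and G2 and 25 of 25 mitosis genes.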

How the data were processed

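The authors deposited UMI counts, whole numbers without normalisation, for 30796 genes and 1683 barcodes, with symbols for 30730 genes from a table of gene names. Read counting used STARsolo, per the submitters' processing notes. Build, annotation, barcode selection and strand use were not given in the sources used here, so overlapping and near-identical genes are uncertain. Positions come from GENCODE 29 on GRCh38, matched by identifier.

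UMIs were summed over the cells of each group and scaled to CPM. Counts and shares carry exact 95% Poisson, conditional or Clopper-Pearson intervals. Cells were thinned to 5000 UMIs (seed 11) for values per cell and shares of cells. No doublet caller was run, and cells over 30000 UMIs (3 G1/S cells and 70 others) were left out as an alternative. Of the usable CAL51 barcodes, 2 were satellites, barcodes close in sequence to a much deeper one, of which 0 were G1/S cells. In MDAMB468 satellites were left out.

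Named genes were the 12 highest and 10 lowest differences, the highest and lowest member of each list and 13 genes whatever their values, and the text gives those the results turn on, some genes not being reported here. The other list members and those in the closing section were chosen after their values were seen. The cells, the lists and the rules were chosen with earlier results of these data known. Alternatives changed the share of cells taken, the depth minimum, the score, the gene minimum, the pseudocount, the scaling (edgeR 4.0.16 TMM factors in R 4.3.3) and the comparison group. Computation was in Python 3.11.15 with scipy 1.17.1 for intervals, pandas 2.3.3 and numpy 2.4.6 for sums, and matplotlib 3.10.9 for plots. The pooled differences, calls and fold intervals were tested on simulated counts. The choice of cells, the thinning and the promoter search were not tested in that way.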

Additional observations from a re-analysis of the deposited data

How the results depend on the processing

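Of the values that describe the main comparisons, 78 kept their direction and size within the limits set and 11 moved, 0 changing direction. The median log2 difference of the mitosis list (-1.13) became -0.88 with the top 20% of cells, -0.81 with a minimum of 10000 UMIs, -0.74 with the score after thinning, -0.88 with members chosen within depth groups, -0.88 with score genes weighted equally and -0.75 against cells that are not mitosis-high. With gene minimums of 200 and 2000 UMIs, 429 and 27 genes were higher and 742 and 57 lower. The median of 11 mitosis UMIs per G1/S cell was 20 without thinning. Reversals befell H2AC6, a histone gene with 7 UMIs in the G1/S cells (log2 difference -1.34), at 0.62 (top 20%), 1.04 (minimum of 10000 UMIs), 0.42 (depth groups) and 0.88 (equal weights), and NTS (0.39), at -0.64 (thinned score), -0.015 (depth groups) and -0.12 (equal weights). The causes were not tested. Of 63 named genes 54 had 1 sign in all 15 alternatives. Thinning the score kept 116 of the 161 members, and choosing within depth groups 134. No paired analysis was possible because each line has 1 library and no result comes from a test. One library per line and about 23 score UMIs per member limit these values.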

Other observations

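Among the lower genes with no mitotic role, several were singled out after their values were seen. MALAT1, a nuclear long noncoding RNA, was the most abundant of these, at 3496 CPM in the G1/S cells and 5196 CPM in the others, 1.49-fold higher in the others (1.45 to 1.53). Its log2 difference of -0.57 was -0.64 with members chosen within depth groups and -0.25 in MDAMB468. DDIT4, a stress-induced inhibitor of mTORC1, was at 55.3 CPM against 108 CPM, 1.95-fold higher in the others (1.58 to 2.43), with a log2 difference of -0.77 within depth groups and -0.69 in MDAMB468. AGR2, a secretory-pathway protein of epithelial cells, was 1.48-fold higher in the others (1.35 to 1.64), at -0.61 within depth groups and -0.42 in MDAMB468. TSPYL2 and HERPUD1 were lower in CAL51 G1/S cells, at -1.30 and -0.79, but had differences of 0.67 and 0.41 in MDAMB468. Neither was among the genes with enough UMIs in both lines, so these values do not show a reversal between the lines. ANKRD1 was at -1.32, and at 0.42 with members chosen within depth groups, so its value rests on which cells were taken.

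Some higher genes outside the lists were also singled out after their values were seen. USP37, which removes ubiquitin from cyclin A, was 1.76-fold higher (1.46 to 2.12), with a log2 difference of 0.76 within depth groups and 0.51 in MDAMB468. FBXO5, an inhibitor of the anaphase-promoting complex, was 1.53-fold higher (1.35 to 1.72), with 0.58 and 0.66 for the same alternatives. MASTL, a kinase known for its part in mitotic entry, was higher and not lower in these cells, 1.53-fold (1.25 to 1.86), with 0.61 and 1.02. NPAT, which activates replication-dependent histone genes at the G1/S boundary, was 1.53-fold higher (1.23 to 1.89), while the summed histones stood at 1.07-fold. Its log2 difference was 0.35 within depth groups and 0.09 in MDAMB468. CENPU, a kinetochore gene, was 1.49-fold higher (1.36 to 1.63), with 0.57 and 0.98.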
